A study of Mus musculus with 4 samples.

Results

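The Eph receptors and ephrins followed here are 9 genes of the mouse colon crypt axis: the receptor genes Ephb2, Ephb3, Ephb4, Epha1 and Epha2 and the ligand genes Efna1, Efna4, Efnb1 and Efnb2. They were taken by gene symbol from a deposited table of 25796 genes, and each is represented by the transcript with the highest mean over 4 libraries. All 9 were listed, among 22 genes of the family in the table. The RNA was total RNA of mouse colon epithelial cells, released from washed colon pieces with EDTA and DTT in the presence of a ROCK inhibitor. The libraries are the inputs of an m6A immunoprecipitation experiment, that is, RNA before enrichment with the antibody against N6-methyladenosine. There are 2 libraries labelled Ythdf1 KO and 2 labelled WT. Ythdf1 encodes a cytoplasmic protein that binds m6A-modified mRNA. The sources used here do not give how the knockout was made, in which cells it acts, or the strain, sex and age of the mice. Nor do they say whether each library is a separate mouse, so p-values reflect the spread between libraries, which may be technical.

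Eph receptors form a large family of receptor tyrosine kinases, and their ligands, the ephrins, sit on neighbouring cells, so the system works by cell contact and signals into both cells. Ephrin-A ligands are held by a lipid anchor and ephrin-B ligands span the membrane. In the mouse intestine, EphB2 and EphB3 are known as targets of Wnt signalling that are high at the crypt bottom, whereas ephrin-B1 and ephrin-B2 are higher towards the lumen, and the repulsion between them keeps proliferating and differentiated cells apart.

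The values are normalised read counts, that is, reads per transcript scaled by 1 size factor for each library. Transcript lengths were not used, so levels are compared between libraries for the same gene and not between genes. The most abundant transcripts of all genes held 25936859 and 30951138 recovered reads in Ythdf1 KO-labelled libraries 1 and 2, against 21686140 and 24576164 in WT 1 and 2. Ythdf1 itself was not reduced but higher in both Ythdf1 KO-labelled libraries, at 1752 and 1737 against 1088 and 775.4 in WT. It was called higher in the authors' deposited table (q = 0.0145) and in DESeq2 on recovered reads (adjusted p = 0.0135). Limma-trend (adjusted p = 0.759) and edgeR (adjusted p = 0.739) did not call it. The directions below therefore rest on the labels, and the genotype is not checked by the level of Ythdf1. Across 7431 genes whose mean was 500 or more, the Pearson correlation of log2 values was 0.91 between Ythdf1 KO-labelled libraries and 0.936 between the WT libraries, and it lay between 0.908 and 0.93 across the groups. Epithelial defining markers were detected in every library: Epcam stood at 31627 and 33790 in Ythdf1 KO-labelled libraries and at 30387 and 29956 in WT, and none of the 11 markers was at 0.

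None of the 9 genes passed the test. In limma-trend on log2(value + 1), 0 of 23116 genes tested had an adjusted p under 0.05 (0%), and 1257 (5.44%) had an unadjusted p under 0.05, none of them among the 9. None of the 9 was called by edgeR (0%) or DESeq2 (4.95% of genes) on recovered reads, or by q under 0.05 in the authors' deposited table (4.47% of genes). Both Ythdf1 KO-labelled libraries exceeded both WT libraries for Ephb2 and lay under both for Efnb2 and Efna1, while the other 6 genes overlapped between the groups. Over all genes tested, 14.3% lay above and 21.4% below in that way. Among genes whose mean was 500 or more, which include 8 of the 9, the shares were 22.7% above and 12.8% below. The median log2 difference of the 9 genes was 0.05, against -0.09 over all genes tested and 0.07 over the genes whose mean was 500 or more. The 9 genes were chosen with earlier results of these data known, so these counts are descriptions.

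**Figure D1:**
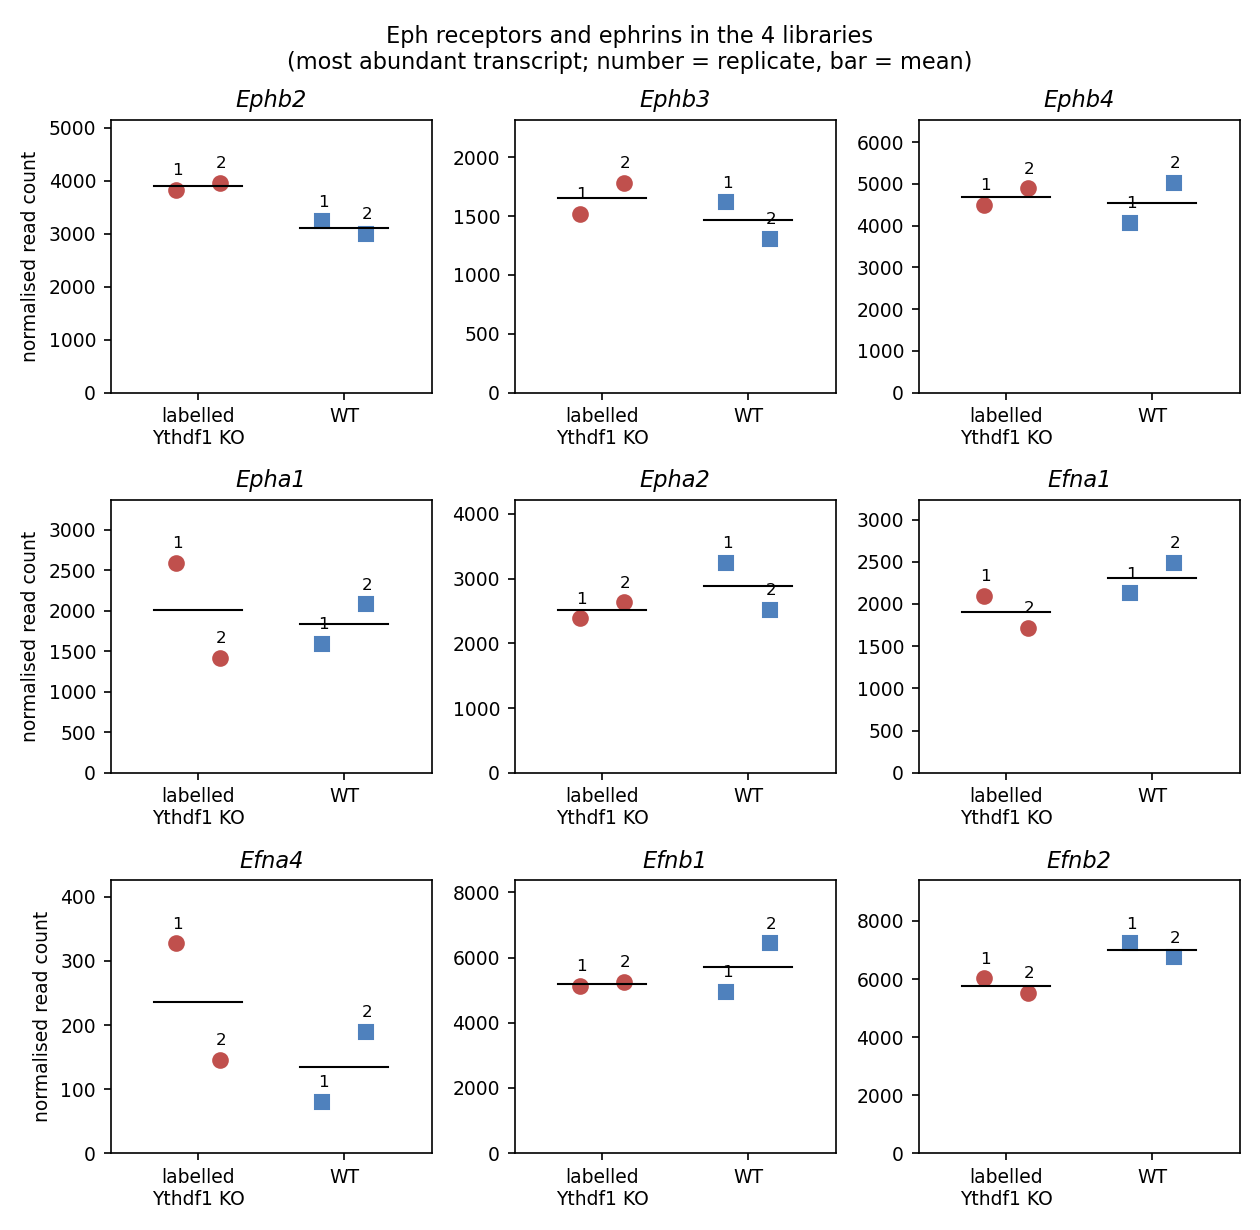
Normalised read count (vertical axis, from 0) of each gene in the 2 Ythdf1 KO-labelled libraries (circles) and the 2 WT libraries (squares), with the replicate number above each point and the group mean as a bar. Ephb2 lies higher in both Ythdf1 KO-labelled libraries, Efnb2 and Efna1 lie lower in both, and the other 6 genes overlap.

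Ephb2, a receptor of crypt base cells, had the smallest p of the 9 genes. Its most abundant transcript, XM_006538534.2 (gene ID 13844, mm10 chromosome 4, 136647536 to 136836007, minus strand), had 3834 and 3966 normalised read counts in Ythdf1 KO-labelled libraries, against 3234 and 2999 in WT. Both Ythdf1 KO-labelled libraries were higher than either WT library, and the libraries of each group differed by little. The means were 3900 ± 93.3 and 3116 ± 166 (SD, n = 2 each), a ratio of 1.25. The log2 difference in limma-trend came to 0.32 ± 0.17 (SE), with a 95% interval of -0.09 to 0.74, an unadjusted p = 0.108 and an adjusted p = 0.76. The 5 listed transcripts of Ephb2 had values close to one another within each library, and each lay above WT, with ratios of 1.23 to 1.25. They share reads and are not separate measurements.

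Ephb3, the other EphB receptor of crypt base cells, had a profile nearer to that of Ephb2 than to any other of the 9 genes. Its level was 1522 and 1786 in Ythdf1 KO-labelled libraries and 1620 and 1307 in WT (NM_010143.1, chromosome 16, 21204795 to 21223304, plus strand). WT 1 lay above Ythdf1 KO 1, so the groups overlapped. The means were 1654 ± 187 and 1464 ± 221 (SD, n = 2 each), with a log2 difference of 0.18 ± 0.25 (SE), a 95% interval of -0.42 to 0.78 and adjusted p = 0.893 in limma-trend. The root mean square distance between the centred log2 values of Ephb2 and Ephb3 over the 4 libraries was 0.12. The shorter predicted transcript XM_006521788.1 had a ratio of 0.985, against 1.13 for NM_010143.1.

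Ephb4, a receptor best known from veins and also made by intestinal epithelium, differed little between the groups. It stood at 4495 and 4901 in Ythdf1 KO-labelled libraries and at 4068 and 5033 in WT (NM_001159571.1, chromosome 5, 137350109 to 137374522, plus strand). The WT libraries enclosed both others. The log2 difference was 0.05 ± 0.18 (SE), with a 95% interval of -0.39 to 0.49 and adjusted p = 0.997 in limma-trend. Its sign turned with quantile normalisation and without Ythdf1 KO 2 or WT 1 (log2 differences of -0.032, -0.0097 and -0.10).

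The EphA receptors were split in sign and neither passed. Epha1 varied most within its group among the 5 receptors, at 2592 and 1421 in Ythdf1 KO-labelled libraries and 1595 and 2084 in WT (NM_023580.4, chromosome 6, 42358487 to 42373268, minus strand). Ythdf1 KO 1 was the highest and Ythdf1 KO 2 the lowest of the 4 libraries, a spread of 1.82 times within that group. The log2 difference was 0.07 ± 0.34 (SE), with a 95% interval of -0.75 to 0.90 and adjusted p = 1 in limma-trend. Without Ythdf1 KO 1 it was -0.36, and without Ythdf1 KO 2 it was 0.51. The sign also turned without WT 1 (-0.12), with transcripts summed (-0.04) and with quantile normalisation (-0.01).

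The end of Epha1 overlaps Zyx over 1727 bases, a gene on the opposite strand that encodes the adhesion protein zyxin. Zyx stood at 3839 and 3441 in Ythdf1 KO-labelled libraries and at 3060 and 2928 in WT. It is not stated whether counting used strand, so reads of the shared stretch cannot be told apart. The predicted Epha1 transcript XM_011241203.2 lies outside Zyx and had 1302 and 844.5 in Ythdf1 KO-labelled libraries, against 1107 and 1375 in WT, a ratio of 0.865 with overlapping groups. At its other end Epha1 overlaps 2010310C07Rik over 2640 bases, which stood at 0 and 19.9 in Ythdf1 KO-labelled libraries and at 0 and 78.7 in WT.

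Epha2, a receptor of ephrin-A1, stood at 2386 and 2633 in Ythdf1 KO-labelled libraries and at 3244 and 2522 in WT (NM_010139.3, chromosome 4, 141301221 to 141329384, plus strand). WT 1 stood apart above the other 3 libraries. The means were 2509 ± 175 and 2883 ± 510 (SD, n = 2 each), with a log2 difference of -0.19 ± 0.21 (SE), a 95% interval of -0.71 to 0.33 and adjusted p = 0.864 in limma-trend. Without WT 1 the log2 difference was -0.0090. The shorter transcript XM_006538528.3, which starts farther downstream, lay below WT, at 1785 and 1993 in Ythdf1 KO-labelled libraries and 2149 and 2045 in WT.

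Among the ligands, Efnb2 encodes ephrin-B2, a transmembrane ligand of EphB receptors that also marks arteries. Its most abundant transcript, XM_006508694.3 (chromosome 8, 8617235 to 8661260, minus strand), had 6020 and 5528 in Ythdf1 KO-labelled libraries, against 7235 and 6744 in WT. Both Ythdf1 KO-labelled libraries were lower than either WT library. The means were 5774 ± 348 and 6990 ± 347 (SD, n = 2 each), a ratio of 0.826, with a log2 difference of -0.28 ± 0.15 (SE), a 95% interval of -0.64 to 0.08, an unadjusted p = 0.111 and adjusted p = 0.76 in limma-trend. Each of its 3 transcripts lay below WT, with ratios of 0.81 to 0.864, and the curated NM_010111.5 had 3818 and 4148 in Ythdf1 KO-labelled libraries and 4883 and 4339 in WT. The 3 transcripts share reads and are not separate measurements.

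Endothelial markers, like Efnb2, were lower in Ythdf1 KO-labelled libraries, whereas Ephb4 overlapped between the groups. Both ephrin-B2 and EphB4 are known in vessels. The 10 endothelial markers summed to 1112 and 736.2 in Ythdf1 KO-labelled libraries, against 1506 and 1842 in WT. The log2 difference of each of the 10 was below 0, 6 of the 10 lay below both WT libraries (21.4% of all genes tested), none passed the test, and none was at 0 in any library. Cdh5, the cadherin of endothelial junctions, stood at 105.7 and 80.2 in Ythdf1 KO-labelled libraries and at 153.3 and 150.4 in WT. The part of these cells in the levels of Efnb2 and Ephb4 was not tested. Fewer cells of a type and less RNA per cell cannot be told apart in these bulk libraries.

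Efnb1, the X-linked gene of ephrin-B1, stood at 5142 and 5262 in Ythdf1 KO-labelled libraries and at 4956 and 6440 in WT (NM_010110.5, chromosome X, 99136061 to 99149022, plus strand). The WT libraries enclosed both others, and WT 2 stood highest. The means were 5202 ± 84.4 and 5698 ± 1050 (SD, n = 2 each), with a log2 difference of -0.12 ± 0.18 (SE), a 95% interval of -0.56 to 0.33 and adjusted p = 0.909 in limma-trend. Without WT 2 its sign turned, to 0.07. Its centred profile was nearest to that of Ephb4, at a root mean square distance of 0.0953 on the log2 scale.

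Efna1 encodes ephrin-A1, a ligand of EphA2. The transcript kept for it, NM_010107.4 (chromosome 3, 89271730 to 89279645, minus strand), had 2097 and 1716 in Ythdf1 KO-labelled libraries and 2128 and 2487 in WT. Both Ythdf1 KO-labelled libraries were lower, but Ythdf1 KO 1 and WT 1 differed by little. The means were 1906 ± 270 and 2307 ± 254 (SD, n = 2 each), with a log2 difference of -0.28 ± 0.23 (SE), a 95% interval of -0.83 to 0.27 and adjusted p = 0.819 in limma-trend. Its second transcript, NM_001162425.1, overlapped between the groups, at 1924 and 1376 in Ythdf1 KO-labelled libraries and 1648 and 2253 in WT.

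Efna4, the gene of ephrin-A4, was the least sampled of the 9, with 338 and 176 recovered reads in Ythdf1 KO-labelled libraries and 71 and 188 in WT. These reads correspond to normalised read counts of 327.7 and 145.6 against 80.0 and 189.8 (NM_007910.2, chromosome 3, 89333393 to 89338028, minus strand). Replicates of a group differed by 2.25 times in Ythdf1 KO-labelled libraries and 2.37 times in WT, and the groups overlapped. The log2 difference of 0.82 ± 0.80 (SE) had a 95% interval of -1.12 to 2.76 and adjusted p = 0.842 in limma-trend. Of the 9 centred profiles, that of Efna4 was the farthest from each of the other 8. Efna1, Efna3 and Efna4 lie next to each other on the same strand of chromosome 3, with 32947 bases between Efna1 and Efna3 and 10432 between Efna3 and Efna4. Efna3 stood at 903.6 and 736.2 in Ythdf1 KO-labelled libraries and at 1657 and 471.5 in WT, so the 3 neighbours did not share an order of the libraries.

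**Figure D2:**
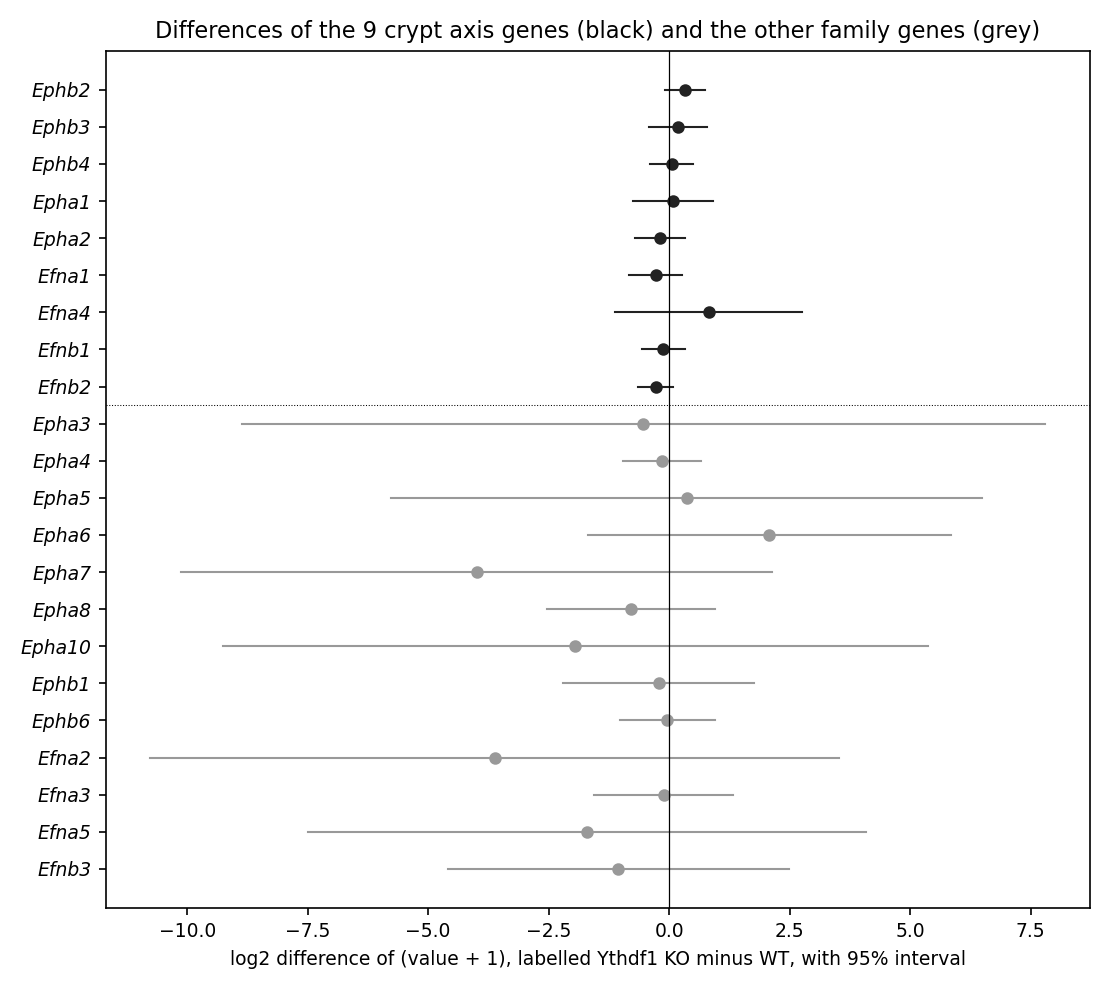
Log2 difference of (value + 1), labelled Ythdf1 KO minus WT (horizontal axis), as a point with its 95% interval from limma-trend, for the 9 crypt axis genes (black) and the other 13 family genes (grey). Every interval includes 0, and the intervals of 8 of the 9 crypt axis genes are narrower than that of Efna4.

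Ratios of receptor to ligand within a library do not depend on the size factor. They were computed after the values had been seen and are given without a test. Ephb2, Ephb3 and Ephb4 together summed to 9851 and 10653 in Ythdf1 KO-labelled libraries, against 8921 and 9339 in WT. Efnb1 and Efnb2 together summed to 11162 and 10790, against 12191 and 13185. The ratio of EphB receptors to ephrin-B ligands was therefore 0.883 and 0.987 in Ythdf1 KO-labelled libraries, and 0.732 and 0.708 in WT, with means of 0.935 ± 0.0741 and 0.72 ± 0.0166 (SD, n = 2 each). Both Ythdf1 KO-labelled libraries lay above both WT libraries, and they did so with transcripts summed (1.56 and 1.70 against 1.19 and 1.20) and on curated transcripts (1.09 and 1.13 against 0.907 and 0.866). These settings share reads and are not separate measurements. With transcripts summed, a shared read counts once for each transcript, so Ephb2, with 5 transcripts, weighs more. It then made up 18777 of the receptor sum of 30238 in Ythdf1 KO 1, against 3834 of 9851 on the most abundant transcripts. Taken alone, Ephb3, Ephb4 and Efnb1 each overlapped between the groups.

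For Ephb2 over Efnb2, the pair of B genes that did not overlap, the ratio was 0.637 and 0.717 in Ythdf1 KO-labelled libraries and 0.447 and 0.445 in WT. The group mean of that ratio was 1.52 times as high in Ythdf1 KO-labelled libraries. Ephb2 lay above both WT libraries and Efnb2 below both, so the separation of this ratio was fixed by the choice of the pair. The ratio of the A class overlapped between the groups. Epha1 and Epha2 over Efna1 and Efna4 gave 2.05 and 2.18 in Ythdf1 KO-labelled libraries and 2.19 and 1.72 in WT, and the direction of that difference turned without WT 2.

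**Figure D3:**
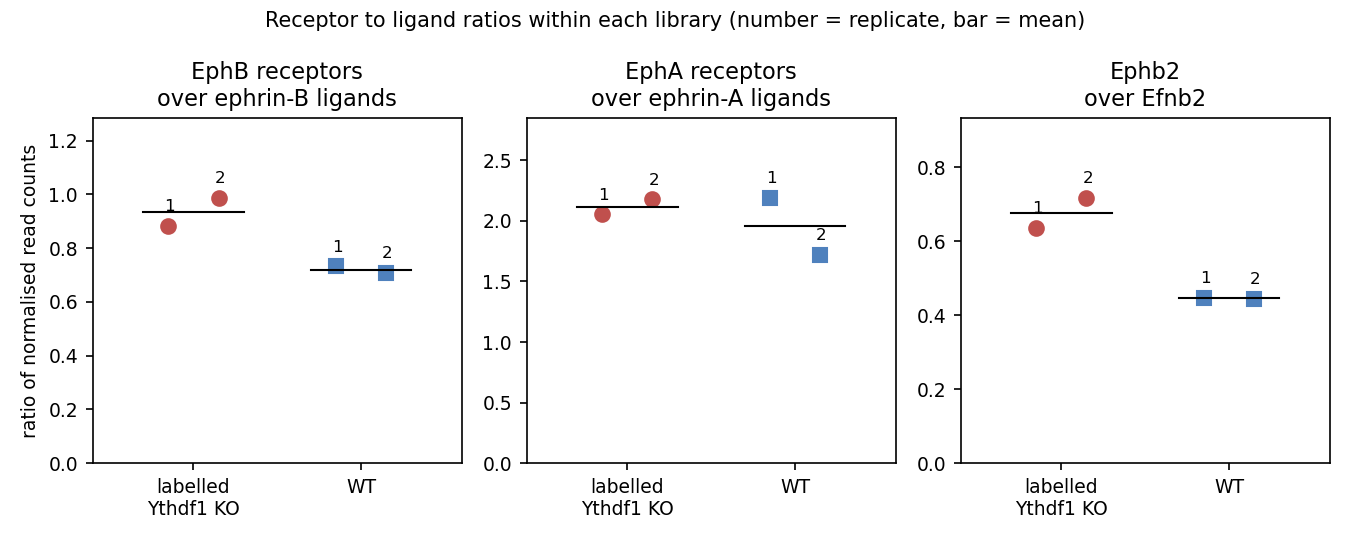
Ratio of summed normalised read counts (vertical axis, from 0) within each library for EphB receptors over ephrin-B ligands, EphA receptors over ephrin-A ligands, and Ephb2 over Efnb2, with circles for the 2 Ythdf1 KO-labelled libraries, squares for the 2 WT libraries and bars for group means. The B ratios lie at 0.883 and 0.987 against 0.732 and 0.708 in WT, and the A ratios overlap.

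The genomic sequence before the start of the 9 genes differs in base composition. RefSeq promoter windows of build GRCm38.p6, which run from 250 bases before to 50 bases after a gene's start, were found for all 9 genes, in 10 windows. Each held more CG dinucleotides (10 to 35) than the median of 7 over 32851 windows. The 90th percentile over those windows was 31, and only the window of Efnb2, at 35, exceeded it. Ephb2 and Efnb2 are shown as the receptor and the ligand of the B class that did not overlap between the groups. The 250 bases before RefSeq's gene start are printed with each CG in capitals, 20 in Ephb2 (chr4:136836013-136836262, minus strand) and 27 in Efnb2 (chr8:8661243-8661492, minus strand). The transcript kept for Efnb2 reaches 8661260, so the last bases of its stretch lie within that transcript.
Ephb2: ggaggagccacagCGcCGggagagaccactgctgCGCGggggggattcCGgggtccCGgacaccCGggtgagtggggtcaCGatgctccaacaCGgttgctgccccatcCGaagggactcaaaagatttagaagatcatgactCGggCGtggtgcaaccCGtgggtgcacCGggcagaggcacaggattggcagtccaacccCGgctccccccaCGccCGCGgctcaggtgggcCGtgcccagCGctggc
Efnb2: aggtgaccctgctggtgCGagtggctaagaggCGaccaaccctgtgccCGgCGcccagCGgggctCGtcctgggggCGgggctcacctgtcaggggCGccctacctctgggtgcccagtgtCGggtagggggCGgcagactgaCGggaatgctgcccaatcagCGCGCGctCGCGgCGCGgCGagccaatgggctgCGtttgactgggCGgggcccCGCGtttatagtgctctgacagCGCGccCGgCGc
The noncoding gene Gm31536 starts 13 bases away from Ephb2 on the opposite strand, inside the stretch shown, and stood at 153.2 and 62.9 in Ythdf1 KO-labelled libraries and at 121.7 and 127.2 in WT.

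The Wnt pathway acts on DNA through TCF and LEF proteins, whose core motif CTTTGA was searched on both strands of these windows. It was found in 1 of the 10 windows, that of Epha2, where 16.0% of all 32851 windows hold it. The Epha2 stretch (chr4:141300971-141301220, plus strand) is shown with the match in capitals, starting 209 bases before the gene's start.
Epha2: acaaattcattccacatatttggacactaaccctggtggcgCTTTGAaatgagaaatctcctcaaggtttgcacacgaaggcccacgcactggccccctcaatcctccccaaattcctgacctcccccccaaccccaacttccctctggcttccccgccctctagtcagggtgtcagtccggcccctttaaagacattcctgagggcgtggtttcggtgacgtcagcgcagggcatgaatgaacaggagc
A match is a description of the letters and not a binding site, and the windows are short, so nothing follows for the windows without one.

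The other 13 Eph receptors and ephrins in the table gave no call, and most were sampled thinly. Epha4, a receptor that binds ephrins of both classes, stood at 711.6 and 592.3 in Ythdf1 KO-labelled libraries and at 789 and 657.3 in WT, and Ephb6, a receptor without kinase activity, at 425.6 and 665 against 501.6 and 592.6. Epha6 lay above WT, at 109.6 and 96.0 against 53.0 and 10.1. Epha7, Epha8 and Efna2 lay below WT. Epha8 stood at 94.0 and 109.2 in Ythdf1 KO-labelled libraries and at 158.9 and 194.9 in WT, and Epha7 at 0 and 72.8 against 145.4 and 127.2. Efna2 was listed at 0 in both Ythdf1 KO-labelled libraries, and at 74.4 and 1.01 in WT, where the lower value is 1 read. Efnb3, the third ephrin-B gene, stood at 80.5 and 36.4 against 379.8 and 33.3, so WT 1 alone set it apart. Epha3, Epha5, Epha10, Ephb1 and Efna5 overlapped between the groups, with values of 0 to 205.5. The median log2 difference of the 13 was -0.54, with 1 gene above and 3 below both WT libraries (14.3% and 21.4% of all genes tested).

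Partners that carry the signal inside the cell were described from a list of 39 genes, all of them tested and none called. Their median log2 difference was 0.11, with 10 above and 2 below both WT libraries. The shares were 14.3% and 21.4% of all genes tested, and 22.7% and 12.8% of genes with a mean of 500 or more. Of the 39, 34 had such a mean. Rgs3, whose product binds the tail of ephrin-B ligands and turns off G protein signalling, stood at 1678 and 2198 in Ythdf1 KO-labelled libraries and at 1406 and 1123 in WT (adjusted p = 0.759 in limma-trend). Acp1, a phosphatase known to act on EphA2, stood at 674.8 and 835.4 against 543.3 and 541.2. Rasa1, a Ras GTPase-activating protein bound by EphB2, stood at 748.4 and 943.8 in Ythdf1 KO-labelled libraries and at 1191 and 1193 in WT. Rock2, a kinase downstream of RhoA, stood at 4002 and 3576 against 4303 and 4335. The extraction buffer held a ROCK inhibitor in every sample.

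Eph receptors and ephrins are shed by proteases, and the 11 genes of sheddases, gamma-secretase and E-cadherin gave 5 above both WT libraries and none below. The shares were 14.3% and 21.4% of all genes tested, and 22.7% and 12.8% of genes with a mean of 500 or more. None of the 11 was called, and their median log2 difference was 0.14. Adam10, a protease that cleaves ephrins and E-cadherin at Eph contacts, overlapped between the groups, at 1930 and 1952 in Ythdf1 KO-labelled libraries and 1951 and 2831 in WT. Psenen, a subunit of gamma-secretase, stood at 742.6 and 836.3 against 525.3 and 439.2 (adjusted p = 0.759 in limma-trend), and Adam17, another sheddase, at 1344 and 1240 against 800.3 and 1198.

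The 20 Wnt and stem cell genes of the crypt, the programme that EphB receptors are known to belong to, gave none called in limma-trend, 4 above and 2 below both WT libraries (14.3% and 21.4% of all genes tested, 22.7% and 12.8% of those with a mean of 500 or more), and a median log2 difference of 0.00054. Sox9, a transcription factor of crypt cells, stood at 7328 and 6633 in Ythdf1 KO-labelled libraries and at 4647 and 3751 in WT (adjusted p = 0.759 in limma-trend). Sox9 was called higher in the authors' deposited table (q = 0.00084) and in DESeq2 on recovered reads (adjusted p = 0.00121), and no other gene of this list was called there. Ccnd1, cyclin D1, stood at 1707 and 1740 against 1348 and 1308. At means under 500, Lgr5 and Nkd1 lay above both WT libraries, and Tcf7 and Notum lay below both. Tcf7 stood at 169.7 and 144.8 in Ythdf1 KO-labelled libraries and at 316.7 and 285.7 in WT, and Notum at 85.3 and 0 against 202.9 and 278.7. Axin2, a feedback inhibitor of the Wnt pathway, overlapped between the groups, at 1941 and 2677 against 2319 and 2186.

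Of 18 genes of differentiated colonocytes, 4 lay above and 7 below both WT libraries. The shares were 14.3% and 21.4% of all genes tested, and 22.7% and 12.8% of genes with a mean of 500 or more. The median log2 difference of the 18 was 0.06. None was called in limma-trend, edgeR or DESeq2, and the authors' deposited table called 1, Guca2a, a guanylin gene (q = 0.0417). Leaving out 1 library gave a call for Car1 without Ythdf1 KO 1, WT 1 or WT 2, and for Muc3 without Ythdf1 KO 1. An unadjusted p under 0.05 in limma-trend was found for 6 of the 18, against 5.44% of all genes tested. That count rested on single libraries, at 9 without Ythdf1 KO 1, 2 without Ythdf1 KO 2, 7 without WT 1 and 1 without WT 2, and it was 2 with transcripts summed and 0 in limma without a trend. Car1, a carbonic anhydrase of colonocytes, stood at 73552 and 42374 in Ythdf1 KO-labelled libraries and at 102727 and 116128 in WT (adjusted p = 0.759 in limma-trend), and Fabp2, a fatty acid binding protein, at 1554 and 680.8 against 1779 and 2660. Klf4, a transcription factor of differentiation, stood at 45162 and 56697 against 41418 and 37807, and Car4, another carbonic anhydrase, at 10222 and 12343 against 9792 and 9705. These markers of crypt position are given beside the levels of Ephb2 and Efnb2, and their part in them was not tested.

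**Figure D4:**
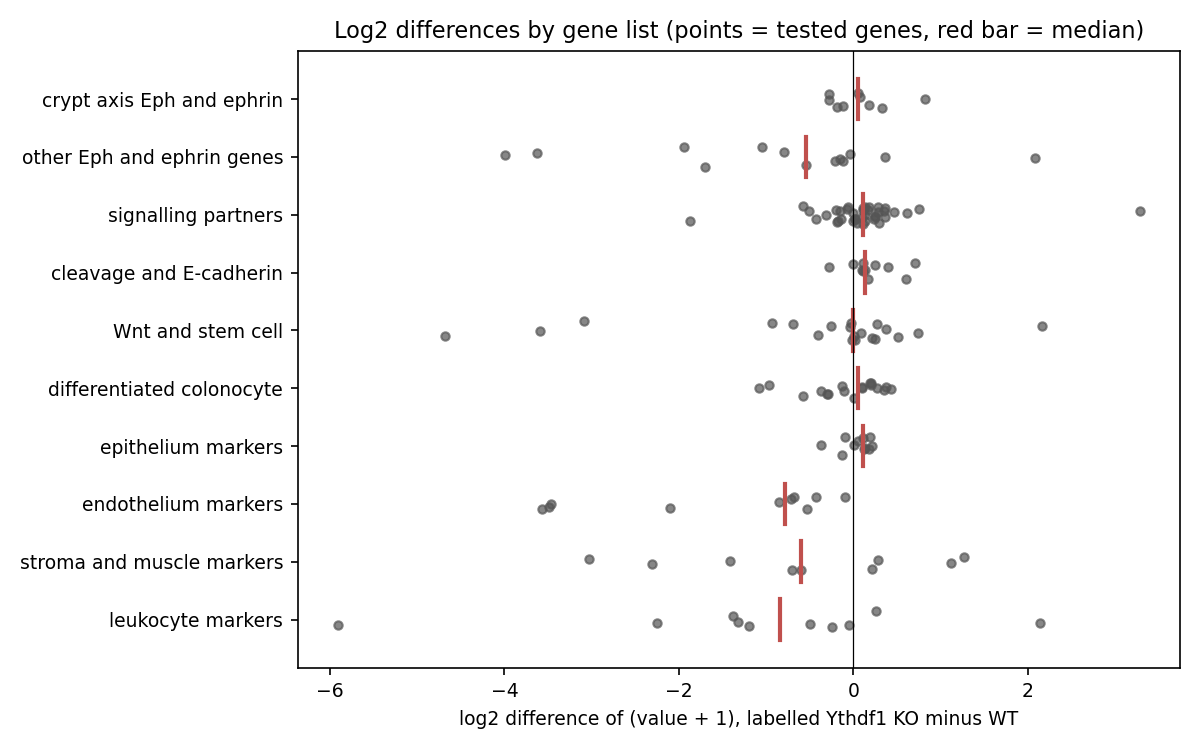
Log2 difference of (value + 1), labelled Ythdf1 KO minus WT (horizontal axis), for each tested gene (points) of the 9 crypt axis genes and of each list named in the text, with the median as a bar. The medians are 0.05 for the crypt axis genes, 0.11 for signalling partners and -0.78 for endothelium markers.

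Markers of stroma and of leukocytes were also summed within each library. The 10 stroma and muscle markers summed to 2191 and 1398 in Ythdf1 KO-labelled libraries and 1692 and 3653 in WT, and the 10 leukocyte markers to 995.7 and 666.7 against 1452 and 1235. Of each list, 2 genes lay below both WT libraries and none above (21.4% and 14.3% of all genes tested), and Lum, Cd3g, Cd79a and Lyz2 were among those at 0 in at least 1 library. Of the 9 stroma and muscle markers tested, 4 had a log2 difference above 0 and 5 below 0. Pdgfra, a receptor of stromal cells named after its values were seen, stood at 17.5 and 78.6 in Ythdf1 KO-labelled libraries and at 276.2 and 349.3 in WT. It was called lower in DESeq2 on recovered reads (adjusted p = 0.0369) and in the authors' deposited table (q = 0.0456), and not in limma-trend (adjusted p = 0.759) or edgeR (adjusted p = 0.739). The 11 epithelial markers summed to 1017656 and 802164 in Ythdf1 KO-labelled libraries and to 931363 and 871874 in WT. The highest of them, Muc2, had a mean of 552102 over the 4 libraries, so these sums mainly follow that gene.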

How the data were processed

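RNA of 4 input libraries was used, 2 labelled Ythdf1 KO and 2 labelled WT. The submitters' processing notes name deepTools 3.3.0, HOMER 4.10, MACS2 2.1.0, SAMtools 1.3.1, Bowtie2 2.2.5 and CASAVA 1.8, and build mm10, with no role or order. Which program counted reads, and whether by strand, is unstated in the sources used here. The deposited signal of each of 87526 RefSeq transcripts is a read count divided by 1 size factor per library: divided by the smallest nonzero value of its library, 100% of values came out whole, within 0.001. Isoforms each count the reads they share, so the most abundant transcript stood for each gene. The lowest mean over the 4 libraries that the table lists is 11.6. For each transcript the authors deposited their own log2 fold change (KO over WT), p-value and q-value, per the file headers.

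A gene was tested where 2 or more libraries reached a value of 1. The fit was robust limma-trend (limma 3.58.1, R 4.3.3) on log2(value + 1), with the genotype label as the only term and Benjamini-Hochberg adjustment over 23116 genes, at a threshold of 0.05. Log2 differences are on the log2(value + 1) scale, and those of low genes depend on the added 1. edgeR 4.0.16 and DESeq2 1.42.0 ran on recovered reads. The 9 genes and all lists were chosen with earlier results of these data known. 1 of the 39 signalling partners was matched through its RefSeq gene identifier, under the symbol Mllt4. From each pathway list, the text names up to 2 genes at each end of the log2 differences. These have a mean of at least 500 and groups that do not overlap. Others named (Adam10, Axin2, Epcam, Cdh5, Guca2a, Lgr5, Muc2, Muc3, Nkd1, Notum, Pdgfra, Tcf7, Zyx) were chosen after their values were seen or for their place. Promoter sequences are RefSeq's, build GRCm38.p6. One leukocyte marker is not reported by name here.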

Additional observations from a re-analysis of the deposited data

How the results depend on the processing

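Across 15 alternatives (14 for Efna4), none of the 9 genes passed the threshold, with adjusted p of 0.185 or more in each, and 6 of the 9 kept their sign throughout. Part of that was fixed in advance. Changing or dropping the filter, limma without a trend and the replicate block leave the log2 difference as it was. Curated transcripts changed it only for Ephb2 and Efnb2. For Ephb2, Efnb2 and Efna1, whose groups do not overlap, leaving out 1 library cannot turn the sign. Ephb4 turned to -0.032 with quantile normalisation. Epha1 turned to -0.041 with transcripts summed and to -0.010 with quantile normalisation. With 1 replicate left out at a time, the log2 differences ranged from 0.27 to 0.38 for Ephb2, 0.03 to 0.33 for Ephb3, -0.10 to 0.21 for Ephb4, -0.36 to 0.51 for Epha1, -0.37 to -0.0090 for Epha2, -0.42 to -0.13 for Efna1, 0.20 to 1.44 for Efna4, -0.31 to 0.070 for Efnb1 and -0.34 to -0.21 for Efnb2. The log2 ratio of EphB receptors to ephrin-B ligands differed by 0.37 and ranged from 0.29 to 0.46 with 1 replicate left out. Its groups do not overlap, so leaving out 1 replicate could not turn its sign. The log2 ratio of the A class differed by 0.12 and ranged from -0.051 to 0.30.

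The count of called genes was 0 in limma-trend, 524 in limma without a trend (93 higher, 431 lower), 1128 in DESeq2 on recovered reads and 1152 in the authors' deposited table. It lay between 0 and 36 with 1 replicate left out, 36 without Ythdf1 KO 1. edgeR called 0, with 1409 at an unadjusted p under 0.05. In the Wnt list, DESeq2 and the deposited table each called 1 gene, Sox9. In the colonocyte list the deposited table called 1, Guca2a, and leaving out 1 replicate gave 0 to 2, with Car1 wherever any was called and Muc3 beside it without Ythdf1 KO 1. Guca2a and Muc3 were named after their calls were seen. The causes were not tested. Same-numbered libraries did not deviate together (correlation of their deviations across genes 0.0225), and the replicate block called 0 genes, with adjusted p = 0.818 for Ephb2 and 0.813 for Efnb2. Quantile normalisation moved the median log2 difference of all genes by 0.0877 and that of genes whose mean was 500 or more by -0.0656. The curated transcripts and the ratios were added after seeing the data. With 2 libraries a group, the 95% interval of a gene with a mean of at least 500 reached a median of 0.70 to either side on the log2 scale, and those of the 9 genes all included 0.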
